A study of Mus musculus with 8 samples.

Results

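The proteasome subunits were taken from a mouse bulk RNA-seq table by gene name: every row whose symbol begins with Psma, Psmb, Psmc, Psmd or Psme followed by a number. The rule used no measured value and found 46 rows, carrying 45 symbols, among the 22053 rows of the table. Of these rows, 43 passed the filter on low values, which asked for 1 FPKM or more in 4 or more of the 8 libraries. It kept 10729 rows of the whole table. FPKM is the number of fragments mapped to a gene, scaled by transcript length and by all fragments mapped, so levels can be compared between genes.

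Vertebral skeletal stem cells (vSSC, 4 libraries) were sorted from the spine and long bone skeletal stem cells (lbSSC, 4 libraries) from femur and tibia. All mice were wild type and at postnatal day 10, and each group held 2 male libraries (replicates 1 and 2) and 2 female libraries (replicates 3 and 4). Both sites were sorted for one surface phenotype, CD31-TER119-CD45-Thy-6C3-CD200+CD105-, which is meant to remove endothelial, blood and more mature stromal cells. The labels call the libraries biological replicates and do not give the number of animals behind a library. The p-values therefore stand for differences among libraries only. The spinal cells are called candidates in the labels, and no treatment or transgene is given.

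The proteasome is the protease that degrades most short-lived and misfolded proteins of the cytosol and nucleus once they carry a ubiquitin chain. Its barrel, the 20S core, is built from rings of alpha subunits, which form the gate, and rings of beta subunits, some of which cut peptide bonds; the 19S regulatory particle binds the ubiquitin chain, removes it and unfolds the substrate with a ring of ATPases. In blood cells and under interferon, 3 immune subunits replace the constitutive catalytic ones in newly built cores and change which peptides reach MHC class I, and in cartilage and bone the turnover of regulators such as beta-catenin, Gli and Runx2 runs through this protease.

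All 8 listed cartilage and skeletal markers, among them Col2a1, Acan, Sox9 and Cd200, averaged above 1 FPKM at both sites. Some of them differed with site: Col1a1 averaged 723 FPKM in vSSC and 4093 FPKM in lbSSC, and Matn3 1506 FPKM in vSSC and 542 FPKM in lbSSC. Col2a1 was at 7443, 13426, 7528 and 15067 FPKM in vSSC 1 to 4 and 11146, 10803, 14634 and 20002 FPKM in lbSSC 1 to 4, lowest in vSSC 1 and vSSC 3 and highest in lbSSC 4. The gate's negative markers with a row summed to 1.32 to 2.37 FPKM in vSSC and 2.27 to 3.07 FPKM in lbSSC, and endothelial markers to at most 0.287 FPKM in vSSC and 0.169 FPKM in lbSSC. Blood transcripts were present despite the gate: 6 erythroid genes summed to 3797 to 5348 FPKM in vSSC and 4240 to 8742 FPKM in lbSSC, and 10 neutrophil genes to 299 to 462 FPKM in vSSC and 29.9 to 134 FPKM in lbSSC. Genes for ribosomal proteins took 16.3% to 19.3% of all FPKM in vSSC and 14.0% to 16.4% in lbSSC. The summed FPKM was 517314 to 571869 in vSSC and 460302 to 521489 in lbSSC, and the number of reads behind each library is unknown.

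The first comparison asked whether proteasome transcripts differ between stem cells of the spine and of the long bones. Of 31 standard subunits, 14 of the core and 17 of the regulatory particle, 18 rose in vSSC and none fell. Calls were made by limma at a Benjamini-Hochberg adjusted p under 0.05 over all genes tested, of which 14.3% rose and 9.17% fell. All 31 differences lay above 0, as did 58.6% over all genes tested. Those differences, in log2(FPKM + 1) and taken as vSSC minus lbSSC, ran from 0.19 to 0.74 with a median of 0.43; the median over all genes tested was 0.08. The core stood at a median of 0.51 with 11 of 14 genes higher, and the regulatory particle at a median of 0.36 with 7 of 17 higher. In bulk RNA, fewer cells of a type and less RNA per cell cannot be told apart.

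Over every tested proteasome row, limma called 20 of 43 (46.5%), 19 higher and 1 lower, and in all genes tested it called 23.5%, with 14.3% higher and 9.17% lower. The immune subunits (0 of 3) and the proteasome activators (0 of 4) gave no call, where 0 and 1 genes passed an unadjusted p under 0.05, as did 38.4% of all genes tested. The single gene that fell was the testis alpha subunit Psma8. In 15 rows every vSSC library lay above every lbSSC library, against 15.8% of all genes, and in 1 row every vSSC library lay below, against 9.99% of all genes. Leaving out a library changed the number of calls among the 43 rows, and the share of all genes called is given beside each. The number was 6 without vSSC 1 (15.6% of all genes), 6 without vSSC 3 (15.3%), 6 without lbSSC 3 (14.3%) and 7 without lbSSC 4 (14.8%). It was 9 without vSSC 2 (18.1%) and 25 without vSSC 4 (27.9%), and it stayed at 20 without lbSSC 1 (22.4%) or lbSSC 2 (20.7%). The 6 genes called in each of these 8 fits were Psma3, Psma5, Psmb6, Psmc6, Psmd14 and Psma8; the other 14 each lost the call in at least 1.

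**Figure D1:**
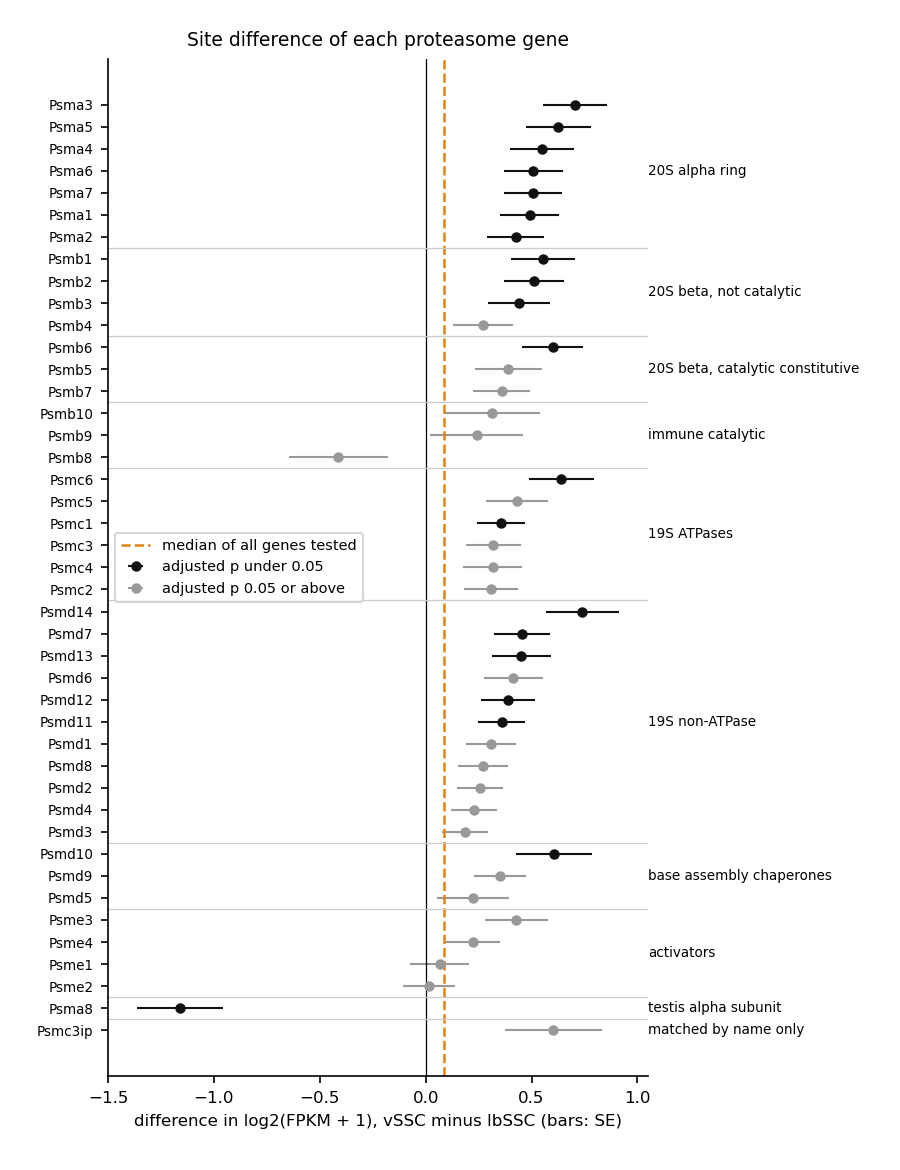
Difference between vSSC and lbSSC for the 43 tested proteasome genes, in log2(FPKM + 1), with bars for the standard error and genes grouped by role (4 libraries a group). All 31 standard core and regulatory genes lie right of 0 and right of the median of all genes (0.08), the immune and activator genes are all grey, and Psma8 lies alone at −1.16.

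**Figure D2:**
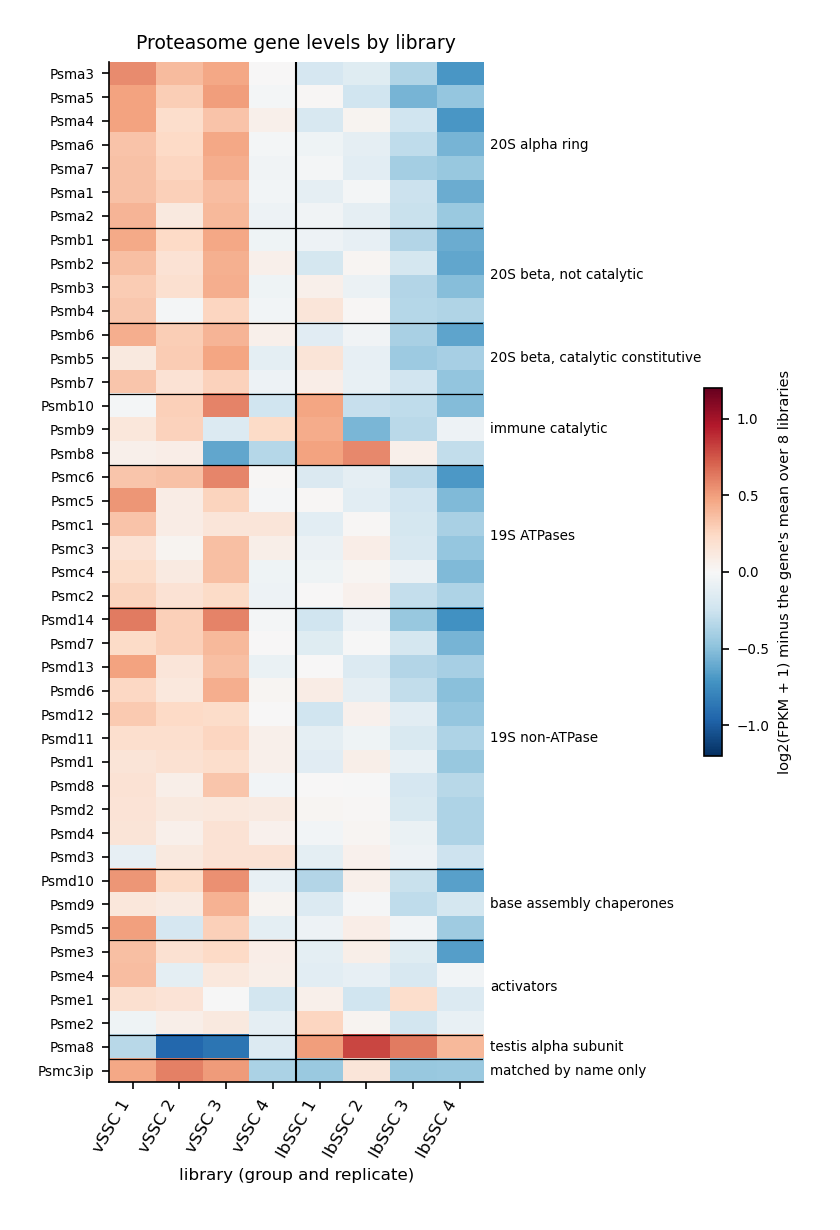
Level of each tested proteasome gene in each of the 8 libraries, as log2(FPKM + 1) minus the mean of that gene over the libraries, with vSSC libraries left of lbSSC libraries. Most standard subunits are darkest red in vSSC 1 and vSSC 3 and darkest blue in lbSSC 4, while Psmb8, Psmb9, Psme1 and Psme2 follow no such order.

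The alpha ring, whose tails form the gate through which substrates enter the core, had all 7 genes called: each rose, by 0.43 to 0.71 on the log2 scale. Their mean levels ran from 72 FPKM (Psma5) to 174 FPKM (Psma2) in vSSC and from 46.4 FPKM (Psma5) to 129 FPKM (Psma2) in lbSSC. Psma3 (chr12:70974621-70996347, GRCm38) was at 169, 147, 157 and 113 FPKM in vSSC 1 to 4 and at 98.2, 102, 87.8 and 69.1 FPKM in lbSSC 1 to 4. All vSSC libraries lay above all lbSSC libraries, with means of 146 ± 23.7 FPKM in vSSC and 89.4 ± 14.8 FPKM in lbSSC (SD, n = 4 each) and a difference of 0.71 ± 0.15 (SE; adjusted p = 0.00748). Psma5 had 80.2, 70.5, 81.3 and 56.1 FPKM in vSSC 1 to 4 and 57.6, 48.2, 38.6 and 41.1 FPKM in lbSSC 1 to 4. These ranges met, since vSSC 4 was just under lbSSC 1; the difference was 0.63 ± 0.15 (SE; adjusted p = 0.0141). Psma4, whose counterpart in yeast plugs the gate, had 176, 146, 159 and 131 FPKM in vSSC 1 to 4 and 109.8, 128, 106 and 77.1 FPKM in lbSSC 1 to 4. The groups stood apart by a narrow margin between vSSC 4 and lbSSC 2, and the difference of 0.55 ± 0.15 (SE; adjusted p = 0.0245) passed the threshold. That call was lost without vSSC 1, vSSC 3 or lbSSC 3, with adjusted p of 0.0555 to 0.0711. The other 4 alpha genes, Psma6, Psma7, Psma1 and Psma2, rose by 0.43 to 0.51.

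Beta subunits without a cutting site, which complete the ring around the catalytic ones, rose in 3 of 4 cases. Psmb1 was at 329.9, 283, 330.3 and 231 FPKM in vSSC 1 to 4 and 229, 224, 187 and 158 FPKM in lbSSC 1 to 4. Its lowest vSSC library was about 2 FPKM above its highest lbSSC library, and its difference was 0.56 ± 0.15 (SE; adjusted p = 0.0225). The Psmb1 call was lost without vSSC 1, vSSC 3, lbSSC 3 or lbSSC 4, with adjusted p of 0.0588 to 0.0671. Psmb2 was at 201, 176, 209 and 162 FPKM in vSSC 1 to 4 and 135, 158, 135 and 101 FPKM in lbSSC 1 to 4. Here vSSC 4 and lbSSC 2 were the neighbouring libraries; the difference was 0.51 ± 0.14 (SE; adjusted p = 0.0245), and the call was lost without vSSC 1, vSSC 3, lbSSC 3 or lbSSC 4, with adjusted p of 0.0518 to 0.0720. Psmb3 was at 98.6, 90.7, 108 and 76.4 FPKM in vSSC 1 to 4 and 82.8, 75.6, 62.0 and 55.3 FPKM in lbSSC 1 to 4. Its groups overlapped, and at 0.44 ± 0.15 (SE; adjusted p = 0.04997) it sat at the threshold. It crossed the threshold in 6 of the 8 fits without 1 library (vSSC 1, vSSC 2, vSSC 3, lbSSC 2, lbSSC 3 or lbSSC 4), with adjusted p of 0.0551 to 0.134. Psmb4 had the smallest core difference, 0.27 ± 0.14 (SE; adjusted p = 0.184).

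Of the 3 constitutive catalytic subunits, Psmb6, which cuts after acidic residues, rose, and Psmb5 (chymotrypsin-like site) and Psmb7 (trypsin-like site) did not pass the test. Psmb6 (chr11:70525367-70527858) was the most abundant proteasome transcript at both sites, at 370.2, 335, 363 and 285 FPKM in vSSC 1 to 4 and 248, 266, 209 and 176 FPKM in lbSSC 1 to 4. All vSSC libraries lay above all lbSSC libraries, with means of 338 ± 38.7 FPKM in vSSC and 225 ± 40.4 FPKM in lbSSC (SD, n = 4 each) and a difference of 0.60 ± 0.14 (SE; adjusted p = 0.0124). Psmb5, the site that the drug bortezomib blocks, was at 69.2, 79.1, 88.6 and 58.8 FPKM in vSSC 1 to 4 and 70.9, 59.5, 46.8 and 48.1 FPKM in lbSSC 1 to 4. Its groups overlapped, with lbSSC 1 above vSSC 1 and vSSC 4, and the difference was 0.39 ± 0.16 (SE; adjusted p = 0.0961). Psmb7 was at 124, 110.5, 119 and 94.0 FPKM in vSSC 1 to 4 and 104, 92.3, 83.2 and 70.2 FPKM in lbSSC 1 to 4. Again lbSSC 1 reached into the vSSC range, and the difference was 0.36 ± 0.14 (SE; adjusted p = 0.0750). Both genes passed the threshold without vSSC 4 and without lbSSC 1, Psmb5 at adjusted p of 0.0382 to 0.0389 and Psmb7 at 0.0353 to 0.0386.

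The ATPase ring of the regulatory particle, which unfolds substrates and opens the gate of the core, had 2 of 6 genes called, Psmc6 and Psmc1, and all 6 differences above 0. Psmc6 (chr14:45329824-45349071) was at 73.2, 74.0, 87.7 and 58.4 FPKM in vSSC 1 to 4 and 51.2, 53.9, 46.4 and 35.6 FPKM in lbSSC 1 to 4. The vSSC libraries all lay above the lbSSC libraries, and the difference was 0.64 ± 0.15 (SE; adjusted p = 0.0125). Psmc1, one of the ATPases that take part in gate opening, was at 51.9, 43.4, 45.1 and 45.1 FPKM in vSSC 1 to 4 and 37.2, 41.2, 35.2 and 30.9 FPKM in lbSSC 1 to 4. Its groups stood apart by about 2 FPKM, with a difference of 0.36 ± 0.11 (SE; adjusted p = 0.0418). Psmc1 kept its call only when lbSSC 2 was the library left out; the other omissions gave adjusted p of 0.0508 to 0.112. Psmc5, another ATPase of the ring, was at 79.4, 58.1, 65.8 and 54.0 FPKM in vSSC 1 to 4 and 55.2, 50.1, 46.4 and 37.6 FPKM in lbSSC 1 to 4. Those groups overlapped between vSSC 4 and lbSSC 1, and the difference was 0.43 ± 0.15 (SE; adjusted p = 0.0531); without vSSC 4 or without lbSSC 1 the adjusted p was 0.0302 to 0.0377. Psmc3, Psmc4 and Psmc2 stood at 0.31 to 0.32 and were not called.

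Among the 11 non-ATPase subunits, 5 rose: Psmd14, Psmd7, Psmd13, Psmd12 and Psmd11. These 5 are subunits of the lid, the part of the regulatory particle that removes the ubiquitin chain. The other lid subunits in the list, Psmd6, Psmd8 and Psmd3, stood at 0.41, 0.27 and 0.19 and were not called, nor were the base scaffolds Psmd1 and Psmd2 at 0.31 and 0.26 or the ubiquitin receptor Psmd4 at 0.23. The largest rise of any subunit was that of Psmd14, the deubiquitinating enzyme itself. The gene (chr2:61711694-61800376) was at 99.1, 78.3, 97.4 and 63.2 FPKM in vSSC 1 to 4 and 54.1, 61.5, 46.6 and 38.4 FPKM in lbSSC 1 to 4. Every vSSC library lay above every lbSSC library, with vSSC 4 within 2 FPKM of lbSSC 2. Its means were 84.5 ± 17.0 FPKM in vSSC and 50.2 ± 9.91 FPKM in lbSSC (SD, n = 4 each) and its difference 0.74 ± 0.17 (SE; adjusted p = 0.0111). Psmd7, the inactive partner of Psmd14, was at 89.2, 92.8, 99.5 and 76.1 FPKM in vSSC 1 to 4 and 68.6, 75.9, 65.4 and 51.3 FPKM in lbSSC 1 to 4. The groups met within 1 FPKM between vSSC 4 and lbSSC 2. The difference was 0.45 ± 0.13 (SE; adjusted p = 0.0307), and it lost its call without vSSC 1, vSSC 2, vSSC 3, lbSSC 3 or lbSSC 4, with adjusted p of 0.0658 to 0.0868. Psmd13 was at 81.8, 64.9, 75.4 and 55.1 FPKM in vSSC 1 to 4 and 58.7, 52.0, 45.7 and 44.1 FPKM in lbSSC 1 to 4. Here vSSC 4 was below lbSSC 1. The difference was 0.45 ± 0.14 (SE; adjusted p = 0.0377), and it lost its call without vSSC 1, vSSC 2, vSSC 3, lbSSC 2, lbSSC 3 or lbSSC 4, with adjusted p of 0.0572 to 0.105.

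The 3 Psmd genes that encode assembly chaperones of the base, and are absent from the finished particle, were read apart from the subunits. Psmd10 (gankyrin) rose, at 18.4, 14.8, 18.7 and 11.7 FPKM in vSSC 1 to 4 and 9.56, 13.1, 10.2 and 7.58 FPKM in lbSSC 1 to 4. Only vSSC 4 lay within the lbSSC range, and the difference was 0.61 ± 0.18 (SE; adjusted p = 0.0330). Without vSSC 1, vSSC 2, vSSC 3, lbSSC 1, lbSSC 3 or lbSSC 4 the adjusted p was 0.0561 to 0.0954. Psmd9 was at 18.3, 17.9, 22.4 and 16.9 FPKM in vSSC 1 to 4 and 14.6, 16.3, 13.1 and 14.1 FPKM in lbSSC 1 to 4. Its groups did not overlap, but its difference of 0.35 ± 0.12 (SE; adjusted p = 0.0565) did not pass, except without vSSC 4 (adjusted p = 0.0440). Psmd5 was at 22.9, 13.8, 19.7 and 14.7 FPKM in vSSC 1 to 4 and 15.3, 17.0, 15.7 and 11.7 FPKM in lbSSC 1 to 4, which overlapped widely, with a difference of 0.22 ± 0.17 (SE; adjusted p = 0.362), which was 0.10 without vSSC 1 and 0.12 without lbSSC 4.

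Library by library, the standard subunits kept much the same order. Summed over the 14 core genes, the level was 2503, 2211, 2515 and 1882 FPKM in vSSC 1 to 4 and 1829, 1814, 1509 and 1296 FPKM in lbSSC 1 to 4. Summed over the 17 regulatory genes it was 1068, 978, 1105 and 887 FPKM in vSSC 1 to 4 and 831, 863, 749 and 629 FPKM in lbSSC 1 to 4. Both sums were higher in every vSSC library than in any lbSSC library, with vSSC 4 nearest to lbSSC 1 and lbSSC 2. As a share of all FPKM, the 31 genes took 0.535% to 0.633% in vSSC and 0.418% to 0.516% in lbSSC, again without overlap. The ratio of the core sum to the regulatory sum was 2.12 to 2.34 in vSSC and 2.01 to 2.20 in lbSSC, and these ranges overlapped.

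Of the 31 genes, 18 had their highest level in vSSC 3 and 13 in vSSC 1, the highest library for 20.5% and 25.0% of all genes tested. The lowest level was in lbSSC 4 for 29 genes and in lbSSC 3 for 2, the lowest library for 31.6% and 10.8% of all genes. The vSSC libraries 1 and 3 also had the largest ribosomal protein shares, 18.9%, 17.3%, 19.3% and 16.3% in vSSC 1 to 4 and 16.4%, 15.8%, 14.1% and 14.0% in lbSSC 1 to 4. The neighbouring libraries vSSC 4 (16.3%) and lbSSC 1 (16.4%) had similar shares, with core sums of 1882 FPKM in vSSC 4 and 1829 FPKM in lbSSC 1. Between them vSSC 4 was higher in 19 of 31 genes, and in 5469 of the 10729 genes tested. With the ribosomal share in the model, no proteasome gene was called by limma (1 passed at an unadjusted p under 0.05, and 605 of all genes were called), 19 of 31 differences stayed above 0, and their median was 0.06. The share itself nearly separated the sites, so its part in the result and that of the site cannot be told apart. The neutrophil sum given above was also higher in every vSSC library, and Col2a1 was lowest in vSSC 1 and vSSC 3, where most subunits were highest, and highest in lbSSC 4, where most were lowest. The part of either in the result was not tested. Without both vSSC 1 and vSSC 3, no standard subunit was called and only Psma8 was, where 10.2% of all genes were called. All 31 differences remained above 0, with a median of 0.29.

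**Figure D3:**
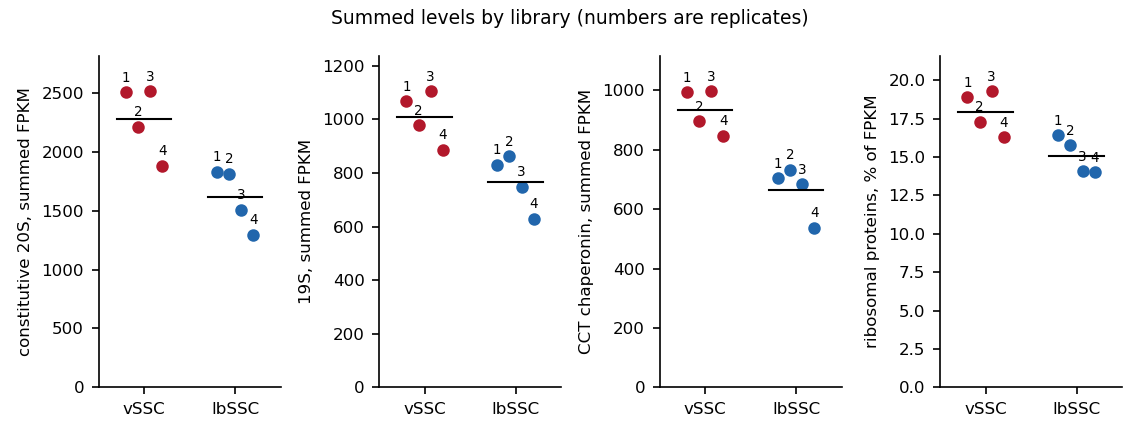
Summed FPKM of the 14 core genes, the 17 regulatory genes and the CCT chaperonin, and the ribosomal protein share of all FPKM, in each library, with a line at the mean of each group and replicate numbers beside the points. In all 3 summed levels each vSSC library lies above each lbSSC library, and in the ribosomal share vSSC 4 (16.3%) and lbSSC 1 (16.4%) meet.

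Because FPKM sums differ between libraries, the calls were also taken after rescaling. Scaling by the median of gene ratios gave 17 calls (16 higher) and by the upper quartile 14 (13 higher), among 43 rows tested. Scaling to one sum gave 13 (12 higher) among 42 rows, and quantile normalization gave 9 (8 higher) among 43. Over all genes, 22.9%, 22.2%, 22.1% and 20.4% were called in the same order, with 11.9%, 9.63%, 9.31% and 10.2% higher. All 31 standard subunits stayed above 0 under each of these scalings. Relative to the median of all genes, which the scalings moved to 0.01, −0.04, −0.04 and 0.03, all 31 stood higher except under quantile normalization, where 29 did. The share of higher among all called genes was 60.9% as deposited and 51.8%, 43.3%, 42.2% and 50% under these scalings in the same order. Under every one of them Psma3, Psma5, Psmb6, Psmc6 and Psmd14 rose and Psma8 fell.

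**Figure D4:**
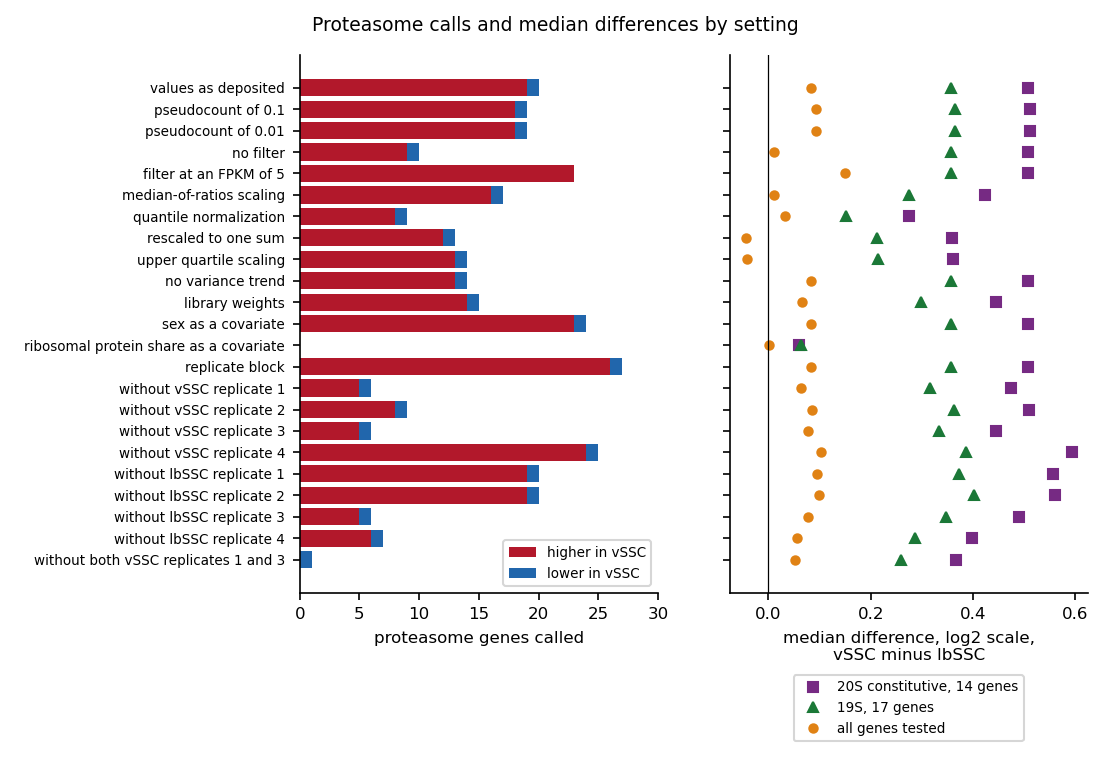
Number of proteasome genes called higher or lower in vSSC under each setting (left), and the median difference of the 14 core genes, the 17 regulatory genes and all genes tested (right, log2 scale, vSSC minus lbSSC). Both the core and the regulatory median lie right of the all-gene median in every setting. The core median lies right of the regulatory median in every setting but the ribosomal covariate. There the core median is 0.0598, the regulatory median 0.0631 and the all-gene median 0.0015.

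Other large constitutive complexes were listed for comparison. All 7 tested genes of the cytosolic chaperonin CCT, which folds actin and tubulin, rose, as did 14.3% of all genes tested. The CCT differences ran from 0.44 to 0.54 with a median of 0.49. The 4 genes with the smallest p, Cct8, Cct5, Cct3 and Cct7, held in each fit without 1 library. With the ribosomal share in the model, and without both vSSC 1 and vSSC 3, these 4 were not called either (adjusted p of 0.234 to 0.482 and of 0.0838 to 0.106), nor was Cct7 under quantile normalization (0.0514). Of 13 genes of the translation initiation factor eIF3, 5 rose (median 0.30), where 14.3% of all genes tested rose, among them Eif3h at 0.54 ± 0.13 (SE; adjusted p = 0.0138). Of 9 genes of the COP9 signalosome, a complex built like the proteasome lid, 1 rose, Cops3 at 0.51 ± 0.16 (SE; adjusted p = 0.0377), and the median was 0.28; that share, 11.1%, was under the 14.3% of all genes. The Cops3 call was lost without vSSC 1, vSSC 2, vSSC 3, lbSSC 3 or lbSSC 4, with adjusted p of 0.0771 to 0.0972.

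The immune subunits were low and none passed the test. Psmb8 (chr17:34197721-34201454), which replaces Psmb5, was at 1.06, 1.09, 0.288 and 0.569 FPKM in vSSC 1 to 4 and 1.77, 1.95, 1.07 and 0.618 FPKM in lbSSC 1 to 4. Its groups overlapped, with the lowest value in vSSC 3, and the difference was −0.41 ± 0.23 (SE; adjusted p = 0.215). It was −0.27 without vSSC 3, and −0.79 and −0.88 with pseudocounts of 0.1 and 0.01. Psmb9 (chr17:34181988-34187764), which replaces Psmb6, was at 1.08, 1.29, 0.696 and 1.23 FPKM in vSSC 1 to 4 and 1.58, 0.300, 0.517 and 0.816 FPKM in lbSSC 1 to 4. The lbSSC libraries held both the highest and the lowest value, and the difference was 0.24 ± 0.22 (SE; adjusted p = 0.447). It was 0.10 without lbSSC 2, 0.43 without lbSSC 1, and 0.55 and 0.63 with pseudocounts of 0.1 and 0.01. Psmb10 (chr8:105935735-105938444), which replaces Psmb7, was at 12.3, 15.6, 19.5 and 10.5 FPKM in vSSC 1 to 4 and 17.8, 10.2, 9.97 and 8.45 FPKM in lbSSC 1 to 4. It was the most abundant immune subunit in all 8 libraries, highest in vSSC 3 and then lbSSC 1, and its difference was 0.31 ± 0.23 (SE; adjusted p = 0.331). This difference was 0.17 without vSSC 3, 0.19 without lbSSC 4 and 0.52 without lbSSC 1.

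The immune subunits were also set, within each library, against the subunit each replaces; the plain percentage does not depend on library scaling. Psmb8 stood at 1.54%, 1.38%, 0.325% and 0.967% of Psmb5 in vSSC 1 to 4 and 2.5%, 3.28%, 2.28% and 1.28% in lbSSC 1 to 4. The percentages overlapped, with lbSSC 4 below vSSC 1 and vSSC 2, but on the log2 scale with 1 added to each FPKM the groups did not. The log2 difference was −0.80 (exact two-sided permutation p = 0.0286 over 70 assignments, the smallest possible; 0.0857 adjusted over 3 ratios), and with a pseudocount of 0.1 the adjusted p was 0.257. With 1 added to levels near 1 FPKM, this log2 ratio does depend on library scaling, and of the pseudocounts tried only 1 gave the separation. Psmb9 stood at 0.325% ± 0.106 of Psmb6 in vSSC and 0.366% ± 0.232 in lbSSC (SD, n = 4 each; log2 difference −0.36, adjusted exact permutation p = 0.471). Psmb9 also lay near 1 FPKM, so its log2 ratio depends on the pseudocount as well. The sign of this difference turned at the smallest pseudocount tried, and no direction is read from it. Psmb10 stood at 12.9% ± 2.9 of Psmb7 in vSSC and 13.1% ± 2.78 in lbSSC (SD, n = 4 each; log2 difference −0.04, adjusted exact permutation p = 0.83). The 3 immune subunits together took 2.51% to 3.47% of all catalytic FPKM in vSSC and 2.9% to 4.77% in lbSSC, so these ranges overlapped.

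**Figure D5:**
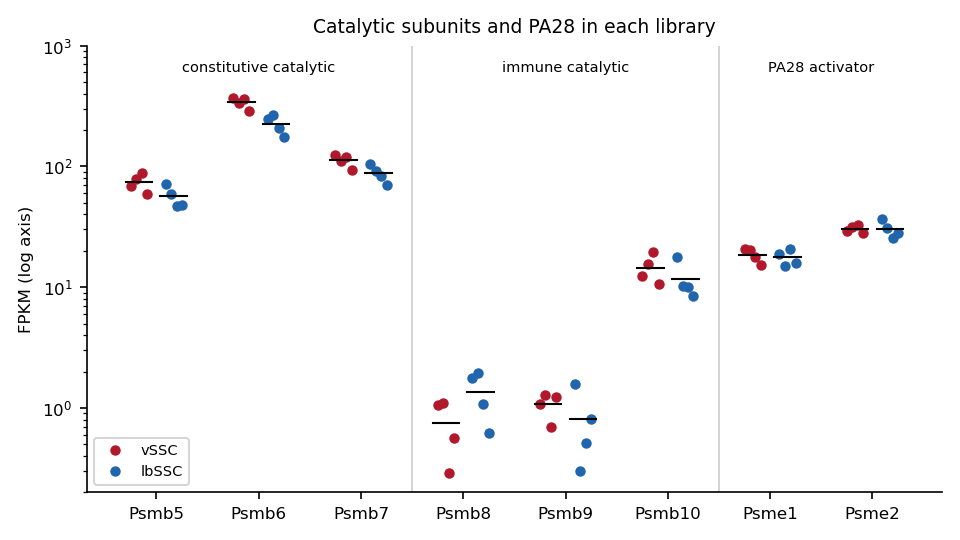
FPKM of the constitutive catalytic and immune catalytic genes and of Psme1 and Psme2 in each library (log axis; lines are group means). Psmb6 alone of these 8 genes has every vSSC library (285 FPKM or more) above every lbSSC library (266 FPKM or less), and Psmb8 and Psmb9 lie near 1 FPKM at both sites.

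Markers of blood cells, which carry immune subunits, were not at one level at the sites. Beside the 10 neutrophil genes given above, 6 B cell genes summed to 9.38 to 14.2 FPKM in vSSC and 1.2 to 8.62 FPKM in lbSSC, and Ptprc, which encodes CD45, was at 0.331 to 0.949 FPKM in vSSC and 0.0250 to 0.0688 FPKM in lbSSC. The 11 macrophage and osteoclast genes summed to 66.0 to 102 FPKM in vSSC and 113 to 135 FPKM in lbSSC, mostly Ctsk. Lyz2 of the same list was higher in vSSC, at 9.50 to 23.0 FPKM, than in lbSSC, at 3.17 to 8.11 FPKM. Csf1r and Adgre1 were at no more than 0.202 FPKM in any library. T and NK cell genes summed to at most 1.93 FPKM in vSSC and 0.155 FPKM in lbSSC. The part of these cells in the immune subunit levels was not tested.

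Around the immune subunits, the antigen presentation list had 4 of 11 tested genes lower in vSSC and none higher (median −0.24), where 9.17% of all genes tested were lower. Tapbpl and Canx were not called (0.42 ± 0.15, adjusted p = 0.0592, and 0.27 ± 0.10, adjusted p = 0.0646), but all their vSSC libraries lay above all their lbSSC libraries. The class I heavy chain H2-D1 was at 34.4, 29.2, 29.3 and 22.6 FPKM in vSSC 1 to 4 and 47.2, 47.3, 40.7 and 39.7 FPKM in lbSSC 1 to 4. The groups were well apart, with a difference of −0.59 ± 0.13 (SE; adjusted p = 0.00930). The trimming peptidase Erap1 (−0.55 ± 0.14, adjusted p = 0.0180), the peptide transporter subunit Tap2 (−0.64 ± 0.18, adjusted p = 0.0281) and the heavy chain H2-K1 (−0.53 ± 0.16, adjusted p = 0.0363) fell as well. Erap1 lost its call without lbSSC 3 (adjusted p = 0.0570), Tap2 without vSSC 3, lbSSC 2, lbSSC 3 or lbSSC 4 (0.0546 to 0.0874), and H2-K1 without vSSC 2, vSSC 3, vSSC 4, lbSSC 1 or lbSSC 2 (0.0551 to 0.0853). Tap1, which overlaps Psmb9 in the annotation, was at −0.05 ± 0.17 (adjusted p = 0.859).

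Of 25 interferon response rows, 14 passed the filter; 3 of them fell and none rose (median −0.29). Irf1, the transcription factor that drives immune subunit genes under interferon, was at 6.78, 9.13, 5.77 and 12.1 FPKM in vSSC 1 to 4 and 27.4, 20.8, 23.2 and 34.2 FPKM in lbSSC 1 to 4. Its highest vSSC library stood well below its lowest lbSSC library, and the difference was −1.56 ± 0.21 (SE; adjusted p = 0.000397). The GTPase gene Irgm1 (−0.89 ± 0.19, adjusted p = 0.00658) and the antiviral gene Rsad2 (−0.75 ± 0.18, adjusted p = 0.0144) also fell; Irgm1 was at −1.35 and −1.43 with pseudocounts of 0.1 and 0.01. All 3 calls held in each fit without 1 library, and 9.17% of all genes tested fell. The kinase gene Jak1 was at −0.41 ± 0.14 (adjusted p = 0.0610, and 0.0326 without vSSC 1). The other 11 rows, among them Ifit1, Gbp2, Oas1a and Mx1, did not pass the filter.

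The activators, caps that open the core without ATP, gave no call among 4 tested genes. Psme1, 1 of the interferon-induced PA28 pair, was at 20.6, 20.2, 17.9 and 15.3 FPKM in vSSC 1 to 4 and 18.8, 15, 20.9 and 16.0 FPKM in lbSSC 1 to 4. Psme2, its partner, was at 29.1, 31.8, 32.9 and 28.1 FPKM in vSSC 1 to 4 and 36.3, 30.9, 25.7 and 28.3 FPKM in lbSSC 1 to 4. Both overlapped throughout, at 0.07 ± 0.14 (adjusted p = 0.755) and 0.02 ± 0.12 (adjusted p = 0.940), and both signs turned under each rescaling. Psme3, the nuclear PA28 gene, was at 62.4, 55.1, 57.3 and 51.4 FPKM in vSSC 1 to 4 and 44.6, 51.0, 43.7 and 30.2 FPKM in lbSSC 1 to 4. Its groups did not overlap, by a margin of under 1 FPKM, and its difference of 0.43 ± 0.15 (SE; adjusted p = 0.0563) did not pass, except without lbSSC 2 (adjusted p = 0.0329); without lbSSC 4 it was 0.28. Psme4, the large single-chain activator PA200, was at 14.4, 9.92, 11.9 and 11.4 FPKM in vSSC 1 to 4 and 9.87, 10.1, 9.36 and 10.6 FPKM in lbSSC 1 to 4, with a difference of 0.22 ± 0.13 (SE; adjusted p = 0.223), which was 0.14 without vSSC 1.

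Psma8, the alpha subunit of the proteasome of male germ cells, fell in vSSC, against the direction of the standard subunits. It was at 1.15, 0.412, 0.476 and 1.43 FPKM in vSSC 1 to 4 and 2.85, 3.74, 3.18 and 2.54 FPKM in lbSSC 1 to 4. Every lbSSC library reached the 1 FPKM that the filter asks for, and in vSSC only vSSC 1 and vSSC 4 did. The row thus passed the filter through the lbSSC group, where it is high, and at a filter of 5 FPKM it was not tested. Every vSSC library lay below every lbSSC library, with means of 0.867 ± 0.501 FPKM in vSSC and 3.08 ± 0.511 FPKM in lbSSC (SD, n = 4 each) and a difference of −1.16 ± 0.20 (SE; adjusted p = 0.00228). With pseudocounts of 0.1 and 0.01 in place of 1 it was −1.86 and −2.00. The call held in each fit without 1 library, at adjusted p from 0.00132 to 0.00954, and was lost with the ribosomal share in the model (−1.04, adjusted p = 0.112). Germ cell markers Ddx4, Dazl and Sycp3 summed to at most 0.441 FPKM in vSSC and 0.273 FPKM in lbSSC. Psma8 is the close relative of Psma7, which was at 169.7, 159, 180.4 and 129 FPKM in vSSC 1 to 4 and 131, 121, 100.02 and 96.3 FPKM in lbSSC 1 to 4 and rose. The sources used here do not say how reads that match both genes were assigned, so the low Psma8 level is uncertain.

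Other rows at low levels complete the account. Psmb11, the catalytic subunit of thymic cortical epithelium, was listed at 0 in all 8 libraries. Psme2b, a copy of Psme2, was at 0.153, 0.111, 0 and 0.0890 FPKM in vSSC 1 to 4 and 0.337, 0.231, 0.168 and 0.154 FPKM in lbSSC 1 to 4, under the filter and open to reads shared with Psme2. A second row named Psmd5 was at 0 except for 0.258 FPKM in vSSC 2. Psmc3ip matched by name alone, being a factor of meiotic recombination and no proteasome subunit. It was at 5.36, 5.97, 5.55 and 2.54 FPKM in vSSC 1 to 4 and 2.37, 4.07, 2.36 and 2.37 FPKM in lbSSC 1 to 4, and its difference of 0.60 ± 0.23 (SE) did not pass (adjusted p = 0.0779). It passed without vSSC 4 and without lbSSC 2, at adjusted p of 0.00873 to 0.0443.

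Genes that build, adjust or feed the proteasome were read as lists. Of 20 assembly and accessory genes with a row, 5 rose and none fell (median 0.25), where 14.3% of all genes tested rose. For 3 of 23 listed symbols no row was matched. The alpha ring chaperone Psmg1 was at 36.8, 28.4, 37.8 and 25.2 FPKM in vSSC 1 to 4 and 20.4, 23.3, 18.8 and 13.8 FPKM in lbSSC 1 to 4. It stood apart in all libraries, at 0.72 ± 0.17 (SE; adjusted p = 0.0131), and held in each fit without 1 library. The small lid subunit Shfm1 (0.66 ± 0.18, adjusted p = 0.0205), the chaperone Psmg3 (0.68 ± 0.19, adjusted p = 0.0234), the deubiquitinase Uchl5 (0.59 ± 0.17, adjusted p = 0.0310) and the thioredoxin-like Txnl1 (0.41 ± 0.13, adjusted p = 0.0464) rose too. Shfm1 lost its call without vSSC 1 or vSSC 3 (0.0586 to 0.0611). Psmg3 lost it without vSSC 2, vSSC 3, lbSSC 2, lbSSC 3 or lbSSC 4 (0.0535 to 0.0696). Uchl5 lost it without vSSC 2, vSSC 3, lbSSC 1, lbSSC 3 or lbSSC 4 (0.0550 to 0.0916). The call of Txnl1, whose groups overlapped, was not followed over these omissions. Pomp, the maturation factor of the beta ring, was at 82.2, 101, 122 and 85.9 FPKM in vSSC 1 to 4 and 89.3, 84.3, 83.4 and 68.1 FPKM in lbSSC 1 to 4, which overlapped (0.25 ± 0.14, adjusted p = 0.201).

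In the Nrf1 pathway, through which cells raise subunit transcription when proteasome capacity falls short, 1 of 15 genes (6.67%) was called, and it fell. Over all genes tested, 23.5% were called and 9.17% fell. The called gene was Hmox1, a target shared with Nrf2, at 3.12 ± 0.395 FPKM in vSSC and 4.75 ± 0.379 FPKM in lbSSC (SD, n = 4 each). Its difference was −0.48 ± 0.13 (SE, adjusted p = 0.0242). The Hmox1 call was lost without vSSC 2, vSSC 3, lbSSC 2, lbSSC 3 or lbSSC 4 (0.0505 to 0.0627). The factor itself, Nfe2l1, was at 34.6, 37.2, 29.2 and 47.0 FPKM in vSSC 1 to 4 and 35.1, 49.3, 51.7 and 45.9 FPKM in lbSSC 1 to 4. Its groups overlapped, with a difference of −0.30 ± 0.16 (SE; adjusted p = 0.192), which was −0.19 without vSSC 3. Vcp, the ATPase that draws Nrf1 out of the endoplasmic reticulum, was at 0.22 ± 0.10 (adjusted p = 0.141). Of 6 genes for ubiquitin and its activating enzymes, limma called none and 2 passed an unadjusted p under 0.05, which 38.4% of all genes tested did; the median difference was 0.18.

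Promoters are shown, as examples only, of genes that rose and of a catalytic gene that was not called. Each marked motif was also found in other genes that were not called, named below. Bases upstream of annotated exons are given from RefSeq (GRCm38.p6), 5′ to 3′ on the strand of the gene. For Psma3 (chr12:70974373-70974620, plus strand), Psma6 (chr12:55383972-55384221, plus strand) and Psmd14 (chr2:61711444-61711693, plus strand), all of which rose, capitals mark the CCAAT box, read as ATTGG where it lies on the other strand.
Psma3: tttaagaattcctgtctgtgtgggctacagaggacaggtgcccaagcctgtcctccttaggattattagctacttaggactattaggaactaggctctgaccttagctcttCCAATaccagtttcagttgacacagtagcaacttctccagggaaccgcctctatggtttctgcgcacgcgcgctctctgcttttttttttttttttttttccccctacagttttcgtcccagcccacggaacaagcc
Psma6: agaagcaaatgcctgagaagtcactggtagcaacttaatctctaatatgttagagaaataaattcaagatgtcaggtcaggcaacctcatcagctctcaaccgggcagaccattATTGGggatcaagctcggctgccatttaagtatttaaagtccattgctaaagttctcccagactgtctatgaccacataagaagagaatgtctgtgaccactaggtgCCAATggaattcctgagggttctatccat
Psmd14: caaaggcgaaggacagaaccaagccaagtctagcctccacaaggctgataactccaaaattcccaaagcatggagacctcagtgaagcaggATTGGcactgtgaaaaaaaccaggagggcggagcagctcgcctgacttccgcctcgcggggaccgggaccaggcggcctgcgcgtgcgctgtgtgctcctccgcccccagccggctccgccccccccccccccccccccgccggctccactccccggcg
For Psmb6 (chr11:70525107-70525356, plus strand), which rose, and Psmb5 (chr14:54618023-54618245, minus strand), which was not called, capitals mark the short antioxidant response element TGACNNNGC, to which Nrf1 binds.
Psmb6: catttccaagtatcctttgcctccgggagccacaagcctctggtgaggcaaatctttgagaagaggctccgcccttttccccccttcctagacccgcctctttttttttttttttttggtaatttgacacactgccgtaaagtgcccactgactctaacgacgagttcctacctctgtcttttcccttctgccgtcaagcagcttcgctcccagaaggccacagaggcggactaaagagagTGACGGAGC
Psmb5: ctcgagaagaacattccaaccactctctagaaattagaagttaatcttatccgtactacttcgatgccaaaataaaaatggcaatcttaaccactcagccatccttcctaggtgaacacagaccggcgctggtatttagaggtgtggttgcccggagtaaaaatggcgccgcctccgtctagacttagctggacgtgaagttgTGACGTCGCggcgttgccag
The element ended next to the RefSeq start in Psmb6, beginning 9 bases before it, and began 47 bases before it in Psmb5.

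Windows of 300 bases, 250 before and 50 after the start, were at hand for 38 of the 45 symbols. They were searched on both strands for 11 motifs. The 38 symbols had 41 windows, and a proteasome gene was counted once if any of its windows matched. The shares of all promoters and of those of tested genes count windows instead. TGACNNNGC was in 6 of 38 (15.8%), in Psmb6, Psmc6 and Psmd12, which rose, and in Psmb5, Psmd9 and Psme4, which were not called. It was in 12.4% of all 32851 promoters and 14.3% of those of tested genes. Every such match is also one of the looser TGANNNNGC. That form was in 57.9% of the proteasome genes, 41.3% of all promoters and 42.6% of those of tested genes. CCAAT was in 39.5% of the proteasome genes, 37.4% of all promoters and 37.5% of those of tested genes. Of the proteasome genes with CCAAT, Psma1, Psma2, Psma3, Psma6, Psma7, Psmb3, Psmc1, Psmd10 and Psmd14 rose. Psmb9, Psmc2, Psmc3ip, Psmd4 and Psme3 were not called, and Psmb11 was not tested. The ETS site CCGGAAGT was in 8 of 38 (21.1%), and in 3.89% of all promoters and 8.23% of those of tested genes. The interferon-stimulated element, searched as GAAA, any 2 bases and GAAA, was in Psmb3, Psmd4, Psmd9 and Psme1 (10.5%). It was in 3.44% of all promoters and 2.64% of those of tested genes. The gamma-activated site TTCNNNGAA was in Psmb8 and Psmd2 (5.26%), and in 8.30% of all promoters and 6.61% of those of tested genes. A match describes letters in the window and no binding.

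Sex was the other comparison the design allowed. Taken as male minus female with site in the model, limma called 0 of 43 proteasome rows and 5 genes in all (0.0466%); 4 proteasome rows and 892 genes (8.31%) had an unadjusted p under 0.05. The smallest of these was Psmb8, higher in males by 0.60 on the log2 scale (unadjusted p = 0.00342, adjusted p = 0.487). The test of whether the site difference differs between the sexes called 0 proteasome rows and 0 genes (0%), with 0 rows and 405 genes (3.77%) at an unadjusted p under 0.05. Within males, the median site difference of the 31 standard subunits was 0.33, with all 31 above 0 and both vSSC libraries above both lbSSC libraries in 27 of these genes and in 31.7% of all genes. Within females the median was 0.54, with all 31 above 0 and both vSSC libraries above both lbSSC libraries in all 31 genes and in 38.1% of all genes.

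The chemistry does not mark the strand, so reads from overlapping genes cannot be told apart. By GENCODE M21, 12 of the proteasome genes overlap another protein-coding gene, among them Psma4 (AY074887), Psma2 (AW209491), Psmb7 (Nek6), Psmb9 (Tap1), Psmd13 (Sirt3), Psmd9 (Hpd) and Psme1 (Emc9), and Psma5, Psmb8 and Psmb10 have an antisense gene. Their values are uncertain to that extent. Psma3, Psmb6, Psmc6 and Psmd14, which held in each fit without 1 library, overlap no other protein-coding gene. Of these, Psma3 overlaps a noncoding gene on the other strand (3110056K07Rik). Psmd14 overlaps a microRNA gene (Gm22403) and an rRNA gene (Gm25966), and Psmb6 and Psmc6 overlap no annotated gene.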

How the data were processed

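RNA was extracted with a column kit from cells sorted from mouse spine and long bones, and amplified with a full-length cDNA kit. The deposited values are FPKM per gene and library; bcl2fastq 2.19, STAR 2.5.2, Cufflinks 2.1.1 and the build GRCm38 are named per the submitters' processing notes. FPKM keeps no read number: at most 7.78% of low-valued genes lay within 1% of one step between 2 libraries, so no reads could be recovered, depth is unknown, and no counting interval is given. No libraries were identical.

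The whole table was fitted with limma 3.58.1 (R 4.3.3) on log2(FPKM + 1), after a filter of at least 1 FPKM in at least 4 of 8 libraries, with an empirical Bayes variance trend. P-values were Benjamini-Hochberg adjusted over all 10729 genes tested and called under 0.05. The added 1 understates the change of low genes. Site was taken as vSSC minus lbSSC with no covariate, sex as male minus female with site, and their interaction in a fit with both. For 3 ratios within libraries an exact permutation test over the 70 assignments of libraries was used. Scripts were tested on simulated data. Figures used matplotlib 3.10.9.

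Members and lists were chosen with earlier results of these data known. Values in every library are given for the catalytic and PA28 genes and, in each role, the 3 genes with the largest difference; lists are given by counts, medians and up to 4 genes of smallest p. Psma7, Txnl1, Pomp, Tap1, Tapbpl and Canx were named beyond that rule after their values were seen. Some listed genes are not reported here. Alternatives were other pseudocounts, filters, scalings and variance models, covariates, a replicate block and the omission of libraries.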

Additional observations from a re-analysis of the deposited data

Results flagged for a closer look

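In 2 of 89 groups of 4 libraries, 1 library stood apart from the other 3 by more of the range than Dixon's critical value allows; chance gives about 1 in 20 groups. Psmc3ip, the recombination factor that matched by name alone, was at 4.07 FPKM in lbSSC 2, and the next lbSSC library was at 2.37 FPKM. The second row named Psmd5 was at 0.258 FPKM in vSSC 2 and at 0 in the other 3 vSSC libraries. No flagged value belongs to a core, regulatory, immune or activator gene.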

How the results depend on the processing

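The number of proteasome rows called for site was 20, with 23.5% of all genes called. It was 10 with no filter on low values (13.5% of all genes), 9 under quantile normalization (20.4%) and 13 when rescaled to one sum (22.1%). It was 0 with the ribosomal share in the model (5.64%) and 1 without both vSSC 1 and vSSC 3 (10.2%). Leaving out 1 library gave 6 to 25, where 14.3% to 27.9% of all genes were called. The median difference of the proteasome rows, 0.39, was 0.063 with the ribosomal share in the model. With that model, 19 of the 31 standard subunits stayed above 0; among the genes given in every library or named from a list, it turned the sign of Psmc5 (−0.0034), Psmd13 (−0.0091), Psmb5 (−0.095), Psmb7 (−0.053), Psmb3 (−0.059), Psmd5 (−0.24), Psmb10 (−0.33), Cops5 (−0.027), Rps27a (−0.21), Psme1 (−0.023), Psme2 (−0.24) and Nfe2l1 (0.18). Psme1 and Psme2, both near 0, turned to −0.014 and −0.066 under median-of-ratios scaling, −0.045 and −0.14 under quantile normalization, −0.075 and −0.13 when rescaled to one sum, and −0.073 and −0.13 under upper quartile scaling. Over the omissions of 1 library, Psme1 ran from −0.0027 to 0.15 and was below 0 without lbSSC 2. Psme2 ran from −0.057 to 0.10 and was below 0 without vSSC 2 (−0.0049), vSSC 3 (−0.022), lbSSC 3 or lbSSC 4 (−0.013). Without both vSSC 1 and vSSC 3, Psme2 was −0.0098 and Psmd5 −0.051. Uba1 was −0.018 under quantile normalization. Of the ratios, Psmb9 to Psmb6 was 0.030 at a pseudocount of 0.01, and Psmb10 to Psmb7 ran from −0.16 to 0.079 over the omissions of 1 library, above 0 without vSSC 1 (0.066), vSSC 4 (0.0055) or lbSSC 1. Psmb8 to Psmb5 ran from −0.92 to −0.57 and Psmb9 to Psmb6 from −0.59 to −0.22 over these omissions. The cause of these changes was not tested. For single genes, 1032 alternative values kept direction and call, 193 lost the call, 36 gained it and 28 turned sign. Same-numbered libraries did not deviate together throughout (correlations of 0.257, −0.0878, −0.0639 and 0.435 for numbers 1 to 4), and only numbers 1 and 4 matched best with their own. With the replicate block, 27 rows were called, including the 20, and 29.8% of all genes were called. For the 3 ratios, signs were flipped within same-numbered pairs, and the adjusted exact permutation p was 0.375, 0.5625 and 0.875. With only 16 sign patterns no p of this test can fall under 0.05, so it could not call any ratio. No read depth was at hand; low values such as those of Psmb8, Psmb9 and Psma8 carry an unknown counting error.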
